A study of Mus musculus with 24 samples.

Results

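Abca1, Abcg1, Apoe, Scd2, Srebf1, Mylip, Smpdl3a, Lpcat3, Pltp and Ch25h, genes of cholesterol efflux and of the liver X receptor (LXR), were followed in interleukin-4 (IL-4) treated mouse macrophages. They were taken by symbol, and all 10 were found among the 23420 genes of both deposited tables. The series holds 24 samples in 12 groups of 2, all bone marrow-derived macrophages of male C57BL/6 mice aged 3 months, grown for 6 days with M-CSF. In the antagonist experiment (8 samples), cells received a DMSO:EtOH vehicle, IL-4, the PPARγ blocker GW9662, or IL-4 plus GW9662, for 24 h. The memory experiment (16 samples) used wild-type (WT) cells and cells labelled PpargKO, called knockout here. Each genotype was given IL-4 or nothing over 24 h, washed, and rested in differentiation medium for another 24 h. A 3 h exposure to IL-4, or none, followed. The 4 groups of a genotype are called unstimulated, first IL-4, washout and second IL-4. The labels give IL-4 at 20 ng/µl and no dose of GW9662, and do not say how Pparg was deleted or whether a group's samples are from different animals. Each p below therefore measures the spread between these samples, which may be technical.

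LXRα and LXRβ, encoded by Nr1h3 and Nr1h2, are nuclear receptors that bind DNA with a retinoid X receptor and are switched on by oxysterols. Their targets move cholesterol out of the cell and reshape its lipids. ABCA1 hands cholesterol and phospholipid to lipid-poor apolipoproteins, ABCG1 passes cholesterol to formed high-density lipoprotein, and apolipoprotein E and PLTP act on the lipoproteins outside. MYLIP, also called IDOL, is a ubiquitin ligase that limits the uptake of cholesterol, while SREBP-1, SCD2 and LPCAT3 make and remodel fatty acids and phospholipids. CH25H makes 25-hydroxycholesterol, an oxysterol that can activate LXR and hold back sterol synthesis.

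The promoters of Abca1 and Srebf1 are shown because they alone of the searched member promoters held an LXR-type motif. RefSeq promoters (GRCm38.p6) were matched for 7 of the 10 genes, with 11 starts in all, and none was matched for Abcg1, Scd2 or Smpdl3a. Each run is the 250 bases before a transcription start, both genes lie on the minus strand, and capitals mark the motif.
Abca1, chr4:53159896-53160145: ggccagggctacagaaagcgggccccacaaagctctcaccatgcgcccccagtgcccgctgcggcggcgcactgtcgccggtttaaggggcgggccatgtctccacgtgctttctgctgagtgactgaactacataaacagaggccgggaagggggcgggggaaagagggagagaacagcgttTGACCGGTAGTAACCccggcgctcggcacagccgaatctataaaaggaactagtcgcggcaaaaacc
Srebf1, chr11:60210472-60210721: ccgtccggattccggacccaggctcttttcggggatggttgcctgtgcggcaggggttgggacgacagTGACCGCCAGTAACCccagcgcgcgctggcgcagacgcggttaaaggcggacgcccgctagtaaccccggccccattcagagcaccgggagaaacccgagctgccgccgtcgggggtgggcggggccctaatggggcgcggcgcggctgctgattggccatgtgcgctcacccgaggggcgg
The motif is GGTNA and then GGTCA on the same strand with 5 free bases between, N being any base, searched on both strands. It loosens the direct repeat spaced by 4 bases (DR4) so as to take in the known Abca1 element, which made the Abca1 match certain beforehand. Capitals show it from the opposite strand, so it reads reversed and complemented here. It lies 67 to 53 bases before the Abca1 start and 182 to 168 bases before this Srebf1 start, one of 3 Srebf1 starts in the table. Of 32851 RefSeq promoters of this length, 58 (0.177%) held it. The strict DR4, a pair of AGGTCA half-sites with 4 free bases between, overlaps the loosened form and was in 0.0152% of promoters. The STAT6-type palindrome, TTC and GAA with 4 free bases between, was in 5.85%. Each was in 0 of the 11 member promoters. A match describes the letters of the window only. Gene positions given below are whole genes on GRCm38 in the GENCODE annotation.

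Values are read counts scaled to library size (CPM). The deposited columns are means of both libraries of a group, and both libraries' values were recovered from the read steps in each mean, as a deeper and a shallower library whose replicate numbers are unknown. The libraries held about 15948710 to 27666021 reads for the antagonist groups and 5445629 to 16634315 for the memory groups, where 3 reads equal 0.183 to 0.526 CPM. Apoe could not be separated in any group, nor Pltp in the antagonist table, so these have means and no test. Libraries also fell into 2 sets, which Ubb, a ubiquitin gene, marks at 2.81 to 5.62 CPM in 14 libraries and at 289 to 468 CPM in the other 10. All 8 knockout libraries were in the low set, and 7 of 8 wild-type memory libraries in the high one, the exception being the shallower washout library. Vehicle, IL-4 and IL-4 plus GW9662 had 1 library of each set, and both GW9662 libraries were low. Beyond 2-fold, 253 of 7951 genes (3.18%) differed between the vehicle libraries and 282 of 8873 (3.18%) between the wild-type washout libraries. No member with separated libraries was among them, which at that share says little about the members. Apoe in both pairs and Pltp in the vehicle pair could not be compared. All 8 macrophage markers were detected in every group, at unlike levels, Csf1r at 3718 to 8360 CPM but Mertk at 29.3 to 123 CPM. Cd14 averaged 571 CPM in vehicle and 60.7 CPM with IL-4 for 24 h. T and B cell markers summed to at most 0.245 CPM. Neutrophil markers summed to 154 to 289 CPM in the antagonist groups and to 19.5 to 89.2 CPM in the memory groups. Lyz2, the lysozyme gene whose locus carries Cre in a common macrophage deleter line, stood at 14.5 to 41.8 CPM in knockout and 21965.8 to 30727.3 CPM in wild-type groups of the memory table. Pparg itself read 20.8 to 34.0 CPM over the wild-type and 21.1 to 40.9 CPM over the knockout group means, so the level of the whole gene does not check the label, and which part was deleted is not given in the sources used here.

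In the second IL-4 wild-type group the libraries stood apart. The deeper one held fibroblast genes at 492 (Col1a1), 464 (Col1a2), 114 (Col3a1) and 12.4 CPM (Pdgfra), and the shallower one at 16.9, 16.8, 3.40 and 0.110. Dcn, also on the fibroblast list, was low in both, at 0.791 CPM in the deeper and 0.329 CPM in the shallower library. The 5 fibroblast markers summed to 560 CPM in that group's mean and to 0.416 to 6.60 CPM in the other memory groups. Of 9321 genes compared, 1367 (14.7%) differed beyond 2-fold between its libraries, Abca1 and Mylip among them. Ratios of this group are given with and without its deeper library for Abca1, for Mylip against washout and for Ch25h against the first exposure. Other ratios of this group use both libraries.

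Each log2 ratio below compares group means after adding 1 CPM, so low genes change by more than it shows. Its standard error (SE) and p were taken from a limma fit of the recovered libraries, adjusted by Benjamini-Hochberg (BH) over every gene tested. A gene "rose" or "fell" only where that p was under 0.05. Bulk RNA cannot tell fewer cells of a type from less RNA per cell. With IL-4 for 24 h, 4 of 8 tested members rose (9.78% of all genes did) and 3 fell (8.4%), limma calling 18.2% of genes in all. In wild type at the first IL-4 (3 h), 2 of the 7 tested beside Abca1 and Abcg1 rose (24.7% of all genes) and 2 fell (25.1%), where 49.8% of genes were called. In knockout 2 rose (21.5%) and 3 fell (22.8%), where 44.3% were called. After washout in wild type 5 of 9 rose (7.41%) and 1 fell (7.06%), where 14.5% were called. After washout in knockout 4 rose (9.58%) and 1 fell (10.5%), where 20.1% were called. The median log2 ratio of the members was 0.39 and 0.33 after washout in wild type and knockout, where that of all genes was -0.01 and -0.02. Levels after washout are also named in the choice of genes, with no direction. Calls and counts of members there are therefore a description and add no separate support. The plot of log2 ratios by comparison shows all 10 genes together.

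**Figure D1:**
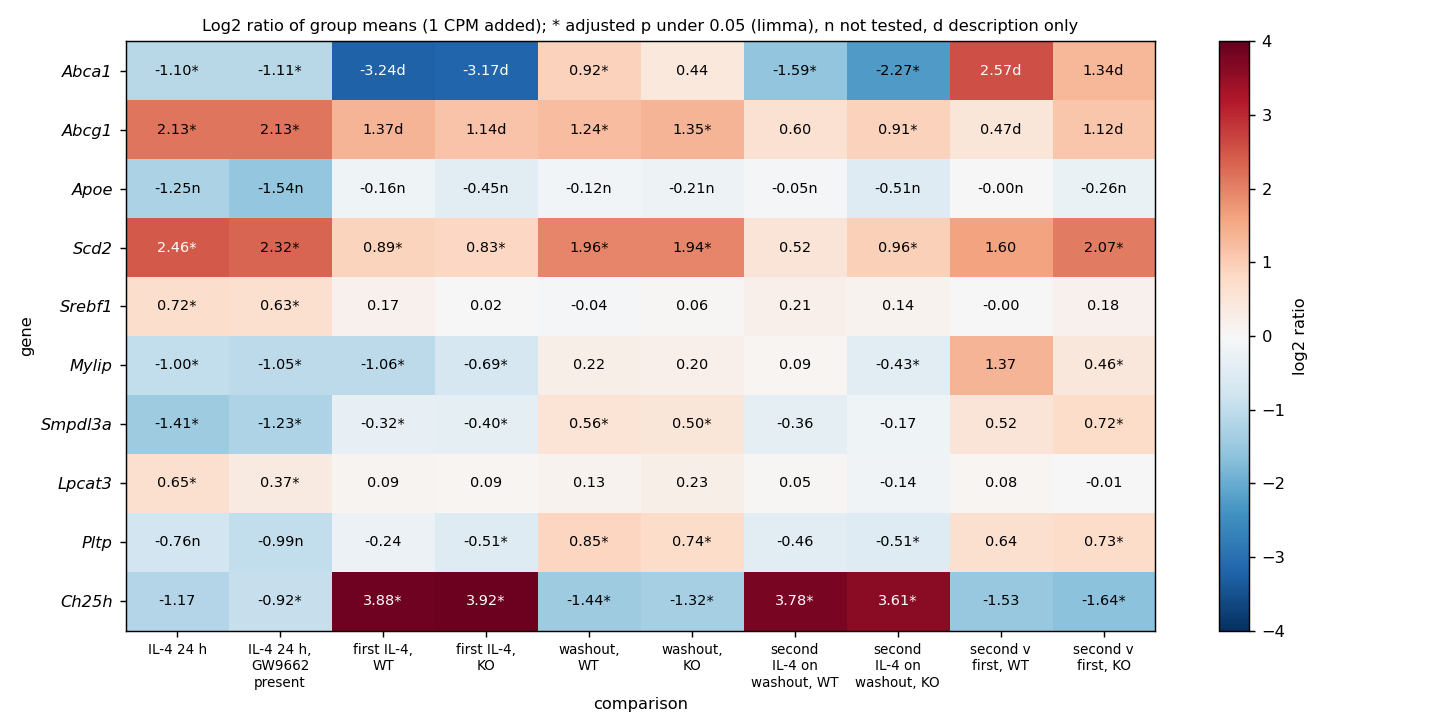
Log2 ratio of group means with 1 CPM added, for each gene (rows) and comparison (columns); a star marks a BH adjusted p under 0.05 in limma, n a gene with no test and d a value given as a description. Abca1 is negative in both first IL-4 columns (-3.24 and -3.17) while Abcg1 is positive (1.37 and 1.14), and Scd2 is positive in each of the 10 comparisons plotted. Stars in the washout columns mark calls that also serve as a description.

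Abca1 (chr4:53030787-53159895, minus strand), the exporter that loads lipid-poor apolipoproteins, lost most of its message within 3 h of a first IL-4 exposure. Wild-type libraries read 194 and 226 CPM unstimulated and 22.1 and 20.6 CPM after IL-4. Knockout libraries read 213 and 211 CPM unstimulated and 19.7 and 25.4 CPM after IL-4. The group means were 9.82-fold lower in wild type and 9.37-fold lower in knockout, with no overlap of libraries in either genotype. Since the choice of genes names this direction, the values are a description with no test.

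Abcg1 (chr17:31057675-31117988, plus strand), the exporter to formed lipoprotein, went the other way at the same time. It read 65.2 and 73.9 CPM in unstimulated wild-type libraries and 195 and 168 CPM after the first IL-4, a 2.61-fold higher mean. In knockout it read 50.7 in each unstimulated library and 117 and 109 CPM after IL-4, 2.23-fold higher. These too are a description, and the plot of both exporters by library shows no overlap before and after IL-4. The order of the exporters turned over with the first exposure. Per kilobase of exon, unstimulated wild-type cells held 20.2 CPM of Abca1 and 9.53 CPM of Abcg1. After IL-4 they held 2.06 CPM of Abca1 and 24.9 CPM of Abcg1 per kilobase.

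**Figure D2:**
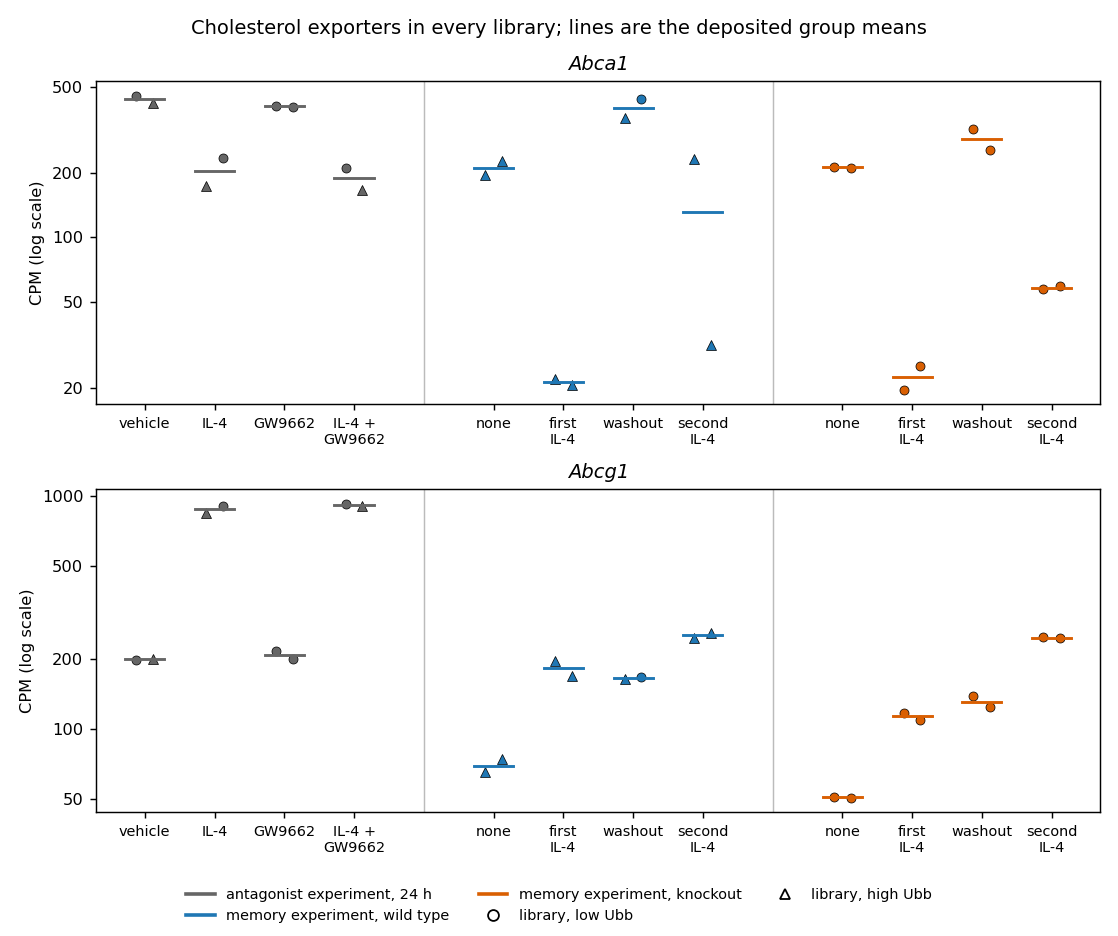
Abca1 and Abcg1 in CPM (log axis) in every group, with circles for libraries of the low Ubb set, triangles for the high set and lines for the deposited group means. Abca1 sits at 19.7 to 25.4 CPM in all 4 first IL-4 libraries, and the second IL-4 wild-type libraries lie far apart at 231 and 31.8 CPM.

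At 24 h of continuous IL-4, Abca1 was lower and Abcg1 higher than in vehicle. Vehicle libraries read 454 and 421 CPM and IL-4 libraries 173 and 234 CPM, with no overlap, so Abca1 fell (log2 ratio -1.10 with SE 0.23, limma adjusted p = 0.015). Abcg1 rose from 198 and 200 CPM to 849 and 902 CPM, a 4.40-fold higher mean (log2 ratio 2.13 with SE 0.15, limma adjusted p = 0.00017). The 3 h and 24 h values come from separate tables and are not compared. Within the high and the low Ubb set, with 1 library a group and no test, the Abca1 log2 ratio was -1.28 and -0.95 and that of Abcg1 was 2.08 and 2.18. Without the shallower IL-4 library 2 of the 8 tested members were called in place of 7, Abcg1 and Scd2. The calls lost there were those of Abca1 (adjusted p = 0.067), Smpdl3a (0.052), Mylip (0.099), Lpcat3 (0.187) and Srebf1 (0.249). Abca1 (adjusted p = 0.13) and Lpcat3 (0.052) were also lost without the deeper IL-4 library, and Srebf1 (0.062) without the shallower vehicle library.

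A day after IL-4 had been washed out, Abca1 stood above its unstimulated level in wild type. Wild-type washout libraries read 358 and 436 CPM, so Abca1 rose (log2 ratio 0.92 with SE 0.19, limma adjusted p = 0.0040). That call was lost without group weights (adjusted p = 0.468) and by limma-voom (adjusted p = 0.437). Knockout washout libraries read 318 and 255 CPM, both above the unstimulated ones, with a log2 ratio of 0.44 (SE 0.16) that did not pass (adjusted p = 0.068). The difference between genotypes in this washout effect was -0.48 (SE 0.25, adjusted p = 0.66). With the Ubb set as a term in the fit, a choice made after seeing the data, the knockout ratio passed (limma estimate 0.43, adjusted p = 0.025). In the high Ubb set alone, the wild-type washout ratio was 0.77.

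Abcg1 stood above its unstimulated level after the washout in both genotypes. It read 164 and 168 CPM in wild-type washout libraries and rose (log2 ratio 1.24 with SE 0.10, limma adjusted p = 4.3e-07). In knockout it read 138 and 124 CPM and rose as well (log2 ratio 1.35 with SE 0.08, limma adjusted p = 8.4e-09). Both exporters were above the unstimulated libraries in every washout library of their genotype. As levels after washout are named in the choice of genes, the washout calls of both exporters serve as a description.

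On a second IL-4 exposure of knockout cells, Abca1 fell again, from the washout values to 57.8 and 59.3 CPM (log2 ratio -2.27 with SE 0.16, limma adjusted p = 1.4e-08). The mean was 2.59-fold above that of the first exposure, a description with no test, since the first exposure is named in the choice of genes. Abcg1 rose again to 249 and 244 CPM (log2 ratio 0.91 with SE 0.08, limma adjusted p = 2.6e-07), with a mean 2.18-fold above the first exposure, again a description. In knockout the second IL-4 raised 3 of 9 members over washout (19.3% of all genes) and lowered 3 (16.6%), 35.9% of genes being called. Against the first exposure 4 of the 7 tested beside Abca1 and Abcg1 were higher (12.9%) and 1 lower (10.1%), 23% being called. The response to the second less that to the first exposure passed for 0 of these 7 (1.49% of all genes called, 0 by limma-voom). Before adjustment 1 of them was under 0.05 by limma, as were 1836 of 11433 genes.

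In wild-type cells the second exposure left Abca1 at 231 CPM in the deeper and 31.8 CPM in the shallower library, so the libraries lie on either side of the knockout values. Against washout 1 of 9 members rose (2.67% of all genes) and 1 fell (2.25%), 4.92% being called. Abca1 was the one that fell (log2 ratio -1.59, limma estimate -2.18, SE 0.51, adjusted p = 0.022). Without the deeper library the ratio was -3.60 (adjusted p = 0.0013), and without the shallower one it was -0.78 (adjusted p = 0.90). The call was also lost with no filter on low genes (adjusted p = 0.094). Against the first exposure the Abca1 ratio was 2.57, or 0.55 without the deeper library and 3.38 without the shallower one, as a description. In that comparison 0 of the 7 tested beside Abca1 and Abcg1 passed (0.312% of all genes called). Before adjustment 4 of them were under 0.05 by limma, as were 1023 of 11878 genes, and limma-voom called 3. Where a limma-voom count of members stands without a count over all genes, it is no result about the members. The response to the second less the first exposure passed for 0 of these 7 (0.00828%). Limma-voom called 0 of them, and 0 had an unadjusted p under 0.05. The deeper library is the one with high collagen counts, and their part in its Abca1 value was not tested. Abcg1 read 247 and 258 CPM in these libraries, both above the washout libraries, with a log2 ratio of 0.60 (SE 0.26, adjusted p = 0.22).

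Apoe and Pltp, which work on lipoproteins outside the cell, were the most abundant members. Apoe (chr7:19696109-19699188, minus strand), the main apolipoprotein of macrophages, had group means of 36673.5 CPM in vehicle, 15378.1 CPM with IL-4, 40941.9 CPM with GW9662 and 14096.8 CPM with both. Both means with IL-4 were below both without it, 2.38-fold in the absence of GW9662, with no test. In the memory table Apoe ranged less, from 9607.3 to 10780.7 CPM over the wild-type groups and from 9943.8 to 16362.9 CPM over the knockout groups. The highest knockout mean was the unstimulated one and the lowest that of the second IL-4.

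Pltp (chr2:164839518-164857711, minus strand), the phospholipid transfer protein, averaged 3637 CPM in vehicle and 2153 CPM with IL-4 for 24 h, with no test. At the first 3 h of IL-4, Pltp went from 561 and 686 CPM to 591 and 462 CPM in wild type, where libraries overlapped (log2 ratio -0.24 with SE 0.11, limma adjusted p = 0.063). Knockout libraries went from 784 and 859 to 580 and 577 CPM, and Pltp fell (log2 ratio -0.51 with SE 0.11, limma adjusted p = 0.0012). That call was lost without group weights (adjusted p = 0.061) and by limma-voom (adjusted p = 0.085). The difference between genotypes was -0.26 (SE 0.15, adjusted p = 0.50). After washout Pltp was high, at 1121 and 1126 CPM in wild type and 1328 and 1412 CPM in knockout. It rose in both (log2 ratios 0.85 and 0.74, adjusted p = 0.00035 and 0.00016 by limma). On the second IL-4 in knockout Pltp fell to 947 and 978 CPM (log2 ratio -0.51, adjusted p = 0.0020), still above the first exposure (0.73, adjusted p = 0.00017). This fall was lost without group weights (adjusted p = 0.072) and by limma-voom (adjusted p = 0.083).

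Mylip (chr13:45389742-45412022, plus strand), the ubiquitin ligase that limits cholesterol uptake, followed Abca1 downward. At 24 h it fell from 71.7 and 64.9 CPM in vehicle to 36.2 and 31.3 CPM with IL-4 (2.02-fold lower mean, adjusted p = 0.0076 by limma). At the first 3 h it fell from 33.0 and 32.6 to 15.9 and 14.6 CPM in wild type (log2 ratio -1.06 with SE 0.13, limma adjusted p = 5.8e-06). In knockout it fell from 29.3 and 29.5 to 16.8 and 18.9 CPM (log2 ratio -0.69 with SE 0.14, limma adjusted p = 0.00059). Limma-voom gave adjusted p = 0.068 in wild type and 0.297 in knockout, and the knockout call was also lost without group weights (adjusted p = 0.185). After washout Mylip read 35.0 and 41.6 CPM in wild type and 39.0 and 28.9 CPM in knockout, where libraries overlapped the unstimulated ones. The ratios of 0.22 and 0.20 did not pass (adjusted p = 0.45 and 0.38). The second IL-4 lowered it to 23.2 and 26.7 CPM in knockout (log2 ratio -0.43, adjusted p = 0.031), higher than at the first exposure (0.46, adjusted p = 0.028). Both calls were lost with no filter on low genes (adjusted p = 0.067 and 0.065), without group weights (0.489 and 0.547) and by limma-voom (0.568 and 0.711). The first was also lost without either deeper library, of washout (-0.20) or of the second IL-4 (-0.33). The second was lost without either first IL-4 library (0.38 without the deeper, 0.54 without the shallower) and without the shallower second IL-4 library (0.36). Second IL-4 wild-type libraries again split, at 60.8 CPM in the deeper and 20.9 CPM in the shallower. Their ratio to washout was 0.09 with both (limma estimate -0.09) and -0.84 without the deeper library, neither of which passed.

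Scd2 (chr19:44293674-44306864, plus strand), a fatty acid desaturase, moved with Abcg1. It rose from 9.17 and 9.18 CPM in vehicle to 58.0 and 51.9 CPM with IL-4 for 24 h, a 5.98-fold higher mean (log2 ratio 2.46 with SE 0.16, limma adjusted p = 0.00011). The first 3 h raised it from 15.8 and 16.3 to 32.6 and 28.4 CPM in wild type (log2 ratio 0.89 with SE 0.11, limma adjusted p = 3.1e-06). Washout libraries were higher still, at 59.6 and 71.0 CPM in wild type and 44.0 and 47.8 CPM in knockout. Scd2 thus rose after washout by 1.96 in wild type and 1.94 in knockout (adjusted p = 5.9e-08 and 3.5e-09 by limma). The second IL-4 took it to 97.0 and 91.5 CPM in wild type (ratio to washout 0.52, adjusted p = 0.46) and to 90.0 and 90.7 CPM in knockout (0.96, adjusted p = 4.0e-06). In knockout these levels were 4.36-fold those of the first exposure. Scd2 shares 3.97% of its 50-base words with other genes, most with Scd1, and the other members at most 0.31%.

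Srebf1, which encodes the lipogenic factor SREBP-1, and Lpcat3, a phospholipid remodelling enzyme, both rose at 24 h. Srebf1 rose from 94.4 and 88.9 to 126 and 177 CPM (log2 ratio 0.72 with SE 0.17, limma adjusted p = 0.025). Lpcat3 rose from 57.6 and 57.0 to 82.7 and 98.3 CPM (log2 ratio 0.65 with SE 0.14, limma adjusted p = 0.019). In the memory experiment neither passed at the first IL-4, after washout or at the second IL-4, in either genotype. Their memory group means lay between 106 and 126 CPM for Srebf1 (chr11:60199089-60222581, minus strand) and between 44.8 and 63.2 CPM for Lpcat3 (chr6:124663027-124704418, plus strand).

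Smpdl3a (chr10:57794335-57811830, plus strand), a secreted phosphodiesterase of nucleotides, fell with IL-4 and was high after washout. At 24 h it fell from 321 and 272 to 131 and 90.9 CPM (log2 ratio -1.41 with SE 0.21, limma adjusted p = 0.0030). At the first 3 h it fell from 338 and 334 to 276 and 263 CPM in wild type (log2 ratio -0.32, adjusted p = 0.0013, but 0.055 by limma-voom). In knockout it fell from 440 and 442 to 332 and 337 CPM (log2 ratio -0.40, adjusted p = 0.00025). After washout it read 468 and 524 CPM in wild type and 678 and 567 CPM in knockout, and rose in both (log2 ratios 0.56 and 0.50, adjusted p = 0.00042 and 0.00015 by limma).

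Ch25h (chr19:34473778-34475164, minus strand), the cholesterol 25-hydroxylase, was scarce before IL-4 and rose most at 3 h. Wild-type libraries went from 3.96 and 3.53 to 65.0 and 72.6 CPM (log2 ratio 3.88 with SE 0.15, limma adjusted p = 3.9e-12). Knockout libraries went from 6.39 and 5.83 to 109 and 105 CPM (log2 ratio 3.92 with SE 0.15, limma adjusted p = 4.6e-12). After washout Ch25h lay under its starting level, at 0.602 and 0.908 CPM in wild type and 1.44 and 2.25 CPM in knockout. It fell in both (log2 ratios -1.44 and -1.32, adjusted p = 7.2e-05 and 1.3e-05 by limma), and both calls were lost by limma-voom (adjusted p = 0.08 and 0.093). The wild-type washout values rest on 6 and 8 reads and the knockout ones on 12 and 16.

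The second IL-4 raised Ch25h again, but to a lower level than the first. Wild-type libraries read 16.6 and 29.7 CPM and knockout libraries 36.7 and 30.6 CPM, and it rose over washout in both (log2 ratios 3.78 and 3.61, adjusted p = 0.00041 and 3.7e-11 by limma). In knockout the second exposure was 3.18-fold below the first (log2 ratio -1.64, adjusted p = 1.9e-06). In wild type it was 2.97-fold below (log2 ratio -1.53), which did not pass (adjusted p = 0.19). That ratio was -1.18 without the deeper second IL-4 library and -1.99 without the shallower one. At 24 h Ch25h read 1.53 and 1.88 CPM in vehicle and 0.230 and 0.181 CPM with IL-4, with 5 and 3 reads behind the latter (log2 ratio -1.17, SE 0.37, adjusted p = 0.072). Within each genotype of the memory table Ch25h was highest at the first IL-4, where Abca1 was lowest, and lowest after washout, where Abca1 was highest. At 24 h of IL-4 both means were below vehicle.

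**Figure D3:**
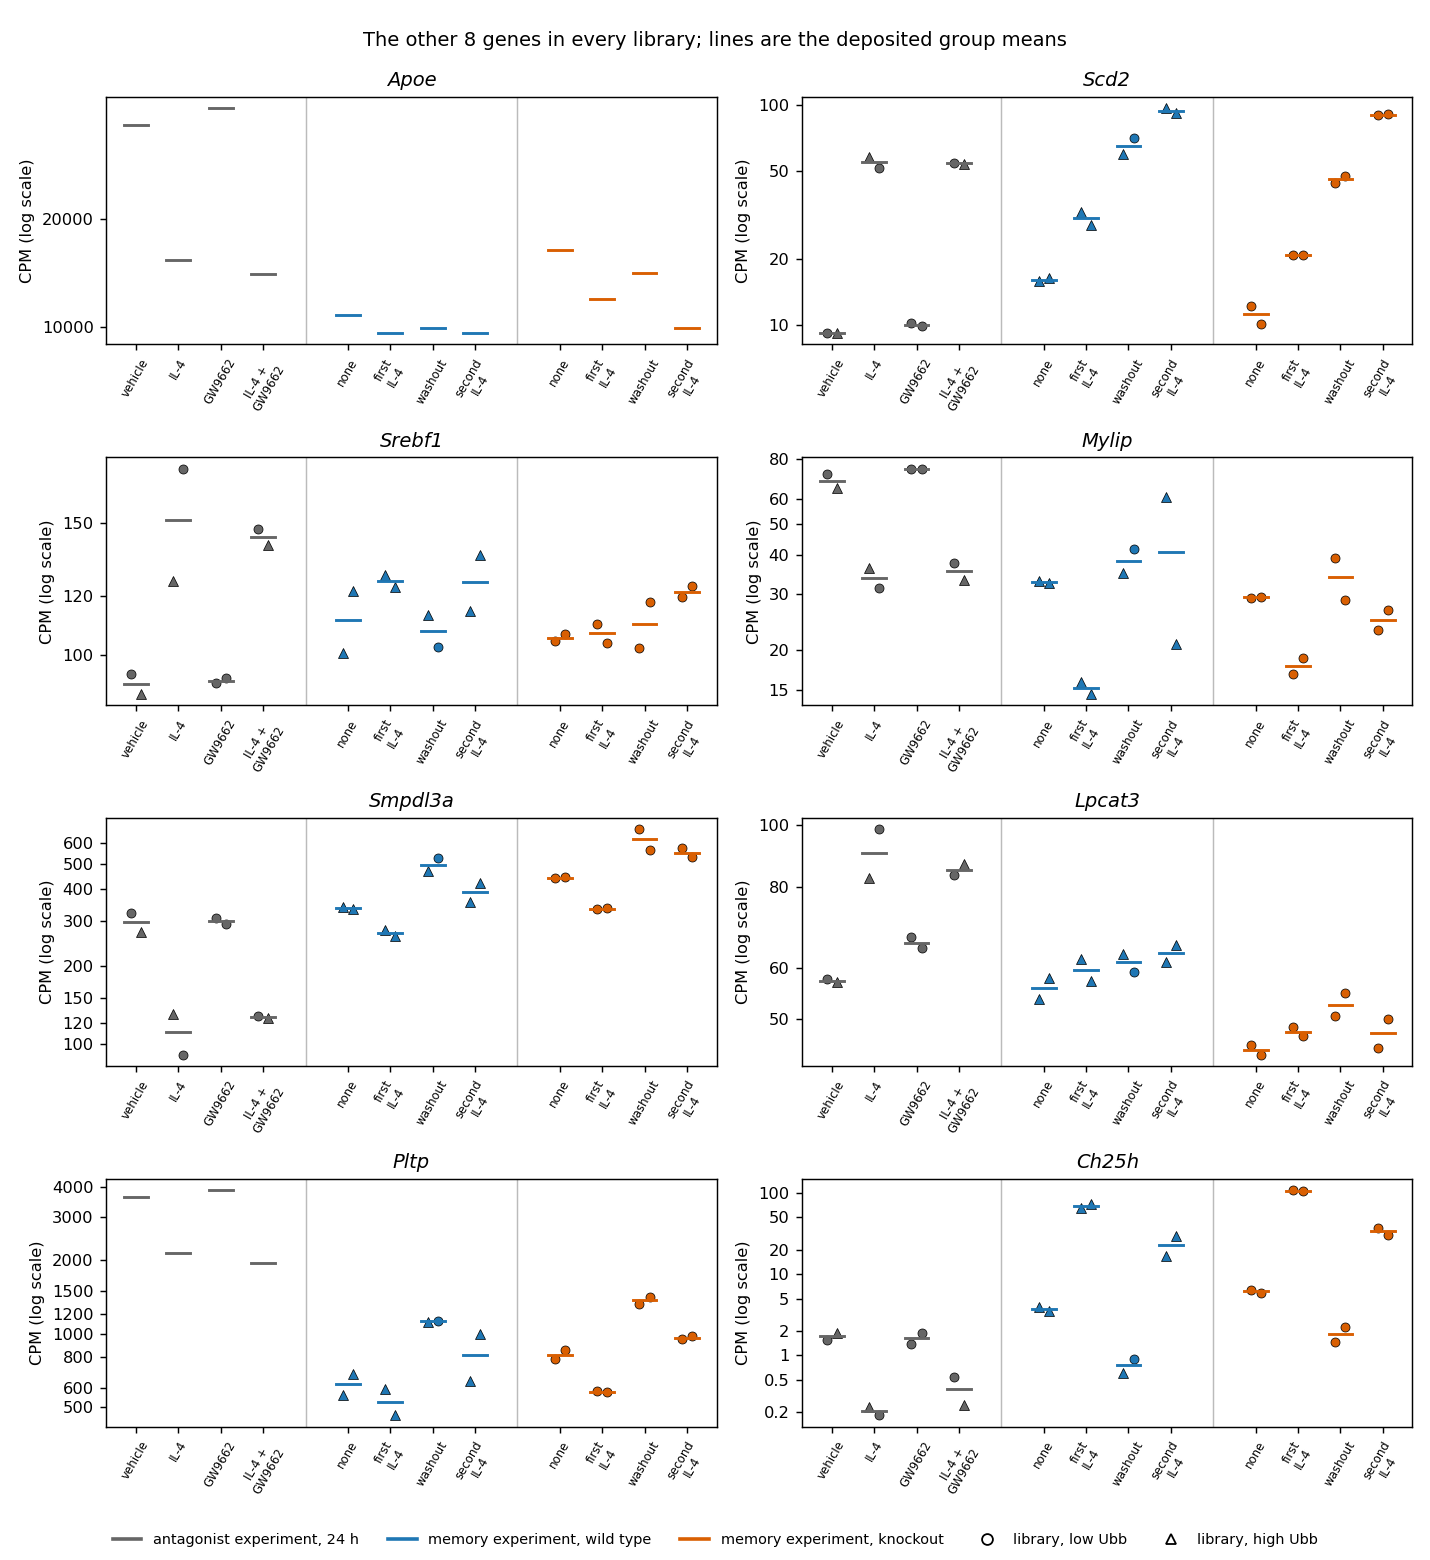
CPM (log axes, each panel with its own range) of Apoe, Scd2, Srebf1, Mylip, Smpdl3a, Lpcat3, Pltp and Ch25h in every group; points are libraries, lines the deposited group means, and genes with lines alone could not be separated. Scd2 climbs from unstimulated to second IL-4 in both genotypes, and Ch25h peaks at the first IL-4 (68.8 and 107 CPM) and is lowest after washout (0.755 and 1.84 CPM).

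No member passed the test for an effect of GW9662. Alone, it gave ratios of -0.11 for Abca1 (SE 0.11) and 0.06 for Abcg1 (SE 0.07), and limma called 0% of 10907 genes, while 258 were under 0.05 before adjustment and limma-voom called 0. Lpcat3 (log2 ratio 0.19, SE 0.07) was the 1 member of those 258, with an adjusted p of 0.99. Added to IL-4, GW9662 gave ratios of -0.11 for Abca1 (SE 0.23), 0.06 for Abcg1 (SE 0.15) and -0.02 for Scd2 (SE 0.16). Ch25h was too low to be tested there, and 0 of 7 members passed. Limma again called 0% of 10836 genes, 1 being under 0.05 before adjustment and 0 called by limma-voom. With GW9662 present, IL-4 still raised Abcg1 (log2 ratio 2.13), Scd2 (2.32), Srebf1 (0.63) and Lpcat3 (0.37, not called by limma-voom). It lowered Smpdl3a (-1.23), Abca1 (-1.11), Mylip (-1.05) and Ch25h (-0.92), so 4 of 8 rose (26.3% of all genes) and 4 fell (25.1%), 51.4% being called. The difference between the IL-4 responses with and without GW9662 passed for 0 of 8 members and 0% of all genes (14 under 0.05 before adjustment, 0 called by limma-voom), and was -0.01 for Abca1 (SE 0.25) and 0.00 for Abcg1 (SE 0.17).

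Knockout and wild-type cells differed modestly in these genes before IL-4, and genotype moves with the Ubb set in every group but washout. Unstimulated, Abcg1 (log2 ratio -0.45), Scd2 (-0.48) and Lpcat3 (-0.31) were lower and Smpdl3a (0.39), Pltp (0.40) and Ch25h (0.58) higher in knockout by limma, 3 of 9 tested lower (10.6% of all genes) and 3 higher (7.77%), 18.4% being called. By limma-voom 0 of these 6 passed. Libraries of the genotypes did not overlap for any of the 6. These 6 were picked by their call in the same libraries, so this adds no support. The share of all genes without overlap is not given here. Abca1, with group means of 210 CPM in wild type and 212 CPM in knockout, gave 0.01 (SE 0.15, adjusted p = 0.96). At the first IL-4, 2 members were higher (1.56% of all genes) and 3 lower (7.61%) in knockout, 9.17% being called, with Abcg1 at -0.68 (adjusted p = 0.00011). Limma-voom called 1 member there. With the Ubb set as a term, 0 of the 6 unstimulated calls passed, Abcg1 at an estimate of -0.48 (adjusted p = 0.13) and Scd2 at -0.74 (adjusted p = 0.078). At the first IL-4, 1 call passed with that term, Abcg1 at -0.71 (adjusted p = 0.024). Every fit with this term in the memory table takes the set's size from the wild-type washout pair alone. Outside washout the genotype and the Ubb set cannot be told apart from these libraries alone.

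After washout, where a wild-type library of the low Ubb set exists, 0 of 9 members passed between genotypes with all libraries (3.34% of all genes called, 0 by limma-voom). Before adjustment 5 members were under 0.05 by limma, as were 2906 of 11345 genes. Within the low set, with 2 knockout libraries and 1 wild-type library, the log2 ratio was -0.60 for Abca1, -0.35 for Abcg1 and -0.62 for Scd2. With the Ubb set as a term the estimates were -0.61, -0.36 and -0.62 (adjusted p = 0.027, 0.034 and 0.0086 by limma). The washout pair is the only wild-type group of the memory table with both sets, so these p rest on 1 low-set wild-type library, assumed to vary like the other libraries. At the second IL-4, 0 members passed (0.0168% of all genes called, 2 members by limma-voom). Before adjustment 1 member was under 0.05 by limma, as were 1044 of 11892 genes. Abca1 stood at -1.15 with both wild-type libraries and 0.86 without the deeper one. The difference between genotypes in the response to the first IL-4 passed for 0 of 9 members (0.0261% of all genes), 0 also at an unadjusted p under 0.05 and 0 by limma-voom. For the washout effect the same 3 counts were 0 (0% of all genes). Which differences these errors could hide is given by the SE, 0.22 for Abca1 at the first IL-4 and 0.11 for Abcg1.

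**Figure D4:**
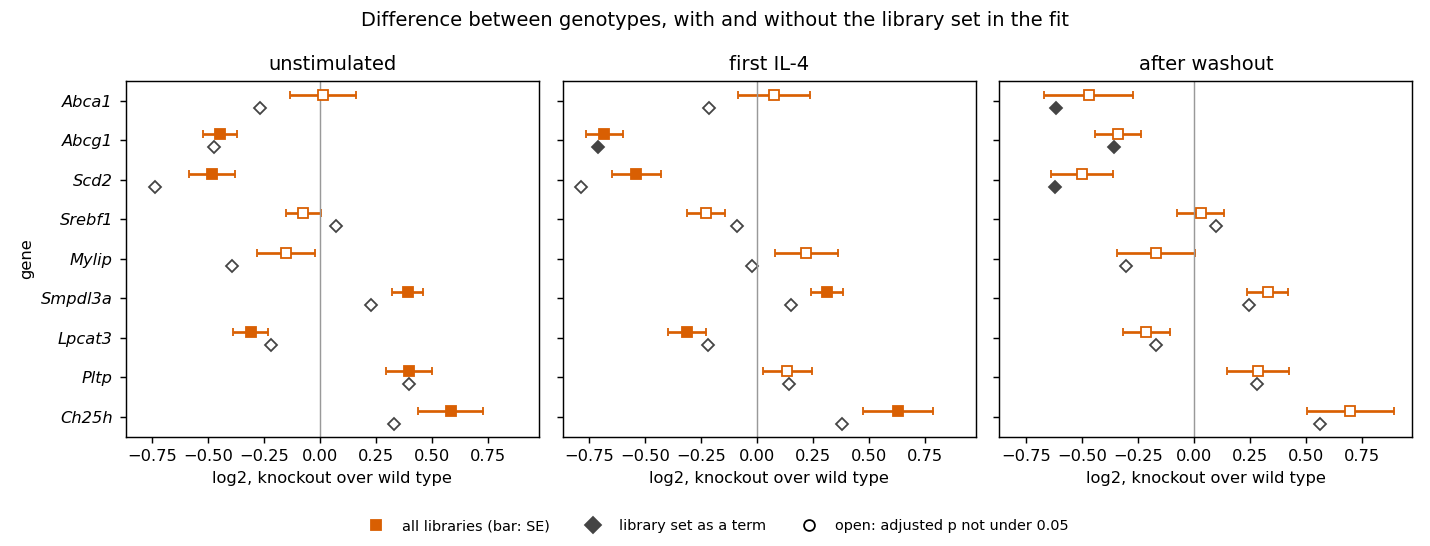
Log2 ratio of knockout over wild type for 9 genes unstimulated, at the first IL-4 and after washout; squares with SE bars use all libraries and diamonds are limma estimates with the Ubb set as a term, filled where the adjusted p is under 0.05. Unstimulated, 6 squares and 0 diamonds are filled, and after washout 0 squares and 3 diamonds.

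Across the 12 group means, each table centred on its own mean, Abca1 and Abcg1 had a Pearson correlation of -0.37. That of Abcg1 with Scd2 was 0.95, of Abca1 with Mylip 0.84 and of Abca1 with Ch25h -0.87. Of the 8665 genes averaging 10 CPM or more, the most like Abca1 were Fnip2 (0.98), Crem (0.98), Lima1 (0.98), Rilpl2 (0.98) and Dnajb14 (0.98). Among the most like Abcg1 were Mgl2 (0.98), Itgb3 (0.98), Rab19 (0.96) and Lipn (0.96). These are descriptions over groups that share treatments and libraries.

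The LXR receptor genes were measured as well. Nr1h3, encoding LXRα, rose at 24 h from 23.6 and 24.0 to 44.9 and 66.4 CPM (log2 ratio 1.19 with SE 0.22, limma adjusted p = 0.010). At the first 3 h it fell in wild type (-0.42, adjusted p = 0.034) and in knockout (-0.95, adjusted p = 0.00017). It rose after washout in both (0.81 and 0.74, adjusted p = 0.014 and 0.0052). Nr1h2, encoding LXRβ, rose in wild type at the first exposure (0.26, adjusted p = 0.0044), from 102 and 117 to 134 and 130 CPM. Of the 7 LXR receptors, partners and corepressors, 2 rose (24.7% of all genes) and 4 fell (25.1%) at the first IL-4 in wild type, the lowest being Nrip1, a corepressor (-0.82), and Rxra, the partner RXRα (-0.49). The list's median log2 ratio there was -0.30, that of all genes -0.01.

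Of 18 further LXR target and efflux genes, 14 were measured at the first IL-4 in wild type, where 3 rose (24.7% of all genes) and 6 fell (25.1%), with a median of 0.03. Nr1h3 is on this list as well as on that of the receptors, so its calls are counted in both. The transglutaminase Tgm2 (1.45) and the fatty acid synthase Fasn (1.19) rose. The efferocytosis receptor Mertk (-1.69) and Cyp27a1, which makes 27-hydroxycholesterol (-0.95), fell, as did the transporter gene Abca9 (-1.27). After washout in wild type 6 of 15 measured rose (7.41% of all genes) and 0 fell (7.06%; median 0.31), led by the apolipoprotein gene Apoc2 (1.52). In knockout 8 of 14 rose (9.58%) and 0 fell (10.5%; median 0.24), again with Apoc2 highest (1.22). At 24 h 2 of 15 rose (9.78%) and 4 fell (8.4%), Apoc2 at -2.75.

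In the sterol uptake and storage list, 2 of 10 measured rose (24.7% of all genes) and 6 fell (25.1%) at the first IL-4 in wild type, among them the scavenger receptor gene Olr1 (1.72) and the cholesteryl ester hydrolase Nceh1 (-1.18). At 24 h 3 of 10 rose (9.78%) and 0 fell (8.4%), among them Olr1 (2.23) and the fatty acid receptor Cd36 (1.46). After washout 3 of 10 rose (7.41%) and 2 fell (7.06%) in wild type. In knockout 4 of 10 rose (9.58%) and 2 fell (10.5%). The cholesterol-esterifying Soat1 rose in both genotypes (0.68 and 0.46), and Msr1 fell in both (-0.24 and -0.22). Of 12 sterol synthesis genes, 7 rose after washout in wild type (7.41% of all genes) and 6 in knockout (9.58%), and 0 fell, with Mvd (1.04 and 1.23) and Hmgcs1 (0.78 and 0.56) in both. Between the unstimulated genotypes 8 of the 12 were lower in knockout (10.6% of all genes), a comparison that moves with the Ubb set. Over all genes limma called 2077 in that comparison, limma-voom 15 and the fit with the Ubb term 36.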

How the data were processed

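Poly-A RNA was sequenced on an Illumina HiSeq, per the labels' protocols. TopHat2 2.0.7, Cufflinks 2.0.2 and mm10 are named per the submitters' processing notes. The authors deposited, for each group, the mean signal of both libraries in CPM, and whole read counts of a deeper and a shallower library were recovered from it. Of 171808 values above 0, 170959 (99.5%) had one solution and 548 stayed unresolved, and the steps were checked on simulated data. Limma 3.58.1 (R 4.3.3) was fitted to log2(CPM + 1) with all groups of a table, 1 weight per group, and Benjamini-Hochberg adjustment over genes of at least 1 CPM in either group. Unresolved values entered as 1 observation of weight 2. The weights were 0.211 for IL-4 at 24 h, 0.0791 for the second IL-4 in wild type and 0.821 to 2.67 elsewhere. The 10 genes are all described, and other lists name at most the 3 highest and 3 lowest called genes. Members and lists were chosen with earlier results of these data known. Alternatives were other pseudocounts, filters, scaling, no weights, limma-voom and leaving out each library. The Ubb set as a term was added after the data were seen. Some genes that the naming rule would list are not reported here.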

Additional observations from a re-analysis of the deposited data

How the results depend on the processing

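Of 2522 single-gene alternatives, 2390 kept their side of the threshold, 81 lost the call, 51 gained one and 0 reversed. A reversal was counted only where a fit called the gene. Ratios not called in either fit could change sign, as that of Abca1 between genotypes at the second IL-4 did. Counts of members called that moved beyond 1.5 times follow. The number of all genes called also moves with the fit, and is given below only for unstimulated genotypes and 24 h of IL-4. These counts are therefore no result about the members. Restimulation in wild type went from 2 to 1 with no filter, 6 without weights and 5 by limma-voom. The second against the first IL-4 in wild type went from 0 to 1 with log2(CPM + 0.1), 5 without weights, 4 by limma-voom and 4 with the Ubb set as a term. The response difference went from 0 to 1 in wild type without weights and by limma-voom, and from 0 to 1 in knockout with log2(CPM + 5), a filter of 5 CPM and the Ubb term. Knockout against wild type went from 6 to 1 without weights, 0 by limma-voom and 0 with the Ubb term in unstimulated cells, and from 5 to 2, 1 and 1 at the first IL-4. After washout it went from 0 to 1 with log2(CPM + 0.1), 1 with log2(CPM + 5) and 3 with the Ubb term, and at the second IL-4 from 0 to 2 without weights and 2 by limma-voom. The cause was not tested. Leaving out 1 library gave 2 to 7 at 24 h of IL-4, 1 to 2 for restimulation, 0 to 1 for the second against the first IL-4 and for the response difference in wild type, 2 to 4 between genotypes at the first IL-4 and 0 to 2 after washout. Over all genes, limma called 2077 between unstimulated genotypes, limma-voom 15 and the fit with the Ubb term 36, and at 24 h of IL-4 limma called 2020 and limma-voom 3452. No paired analysis was possible because the averaged columns carry no replicate number. A lone library left in a group was assumed to vary like the others. At 3 reads, 0.183 to 0.526 CPM in the memory libraries, depth limits Ch25h most.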
